A study of Mus musculus with 10 samples.

Results

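Genes of fat absorption were followed in sorted cells of the mouse small intestinal crypt: Cd36, Fabp1, Fabp2, Dgat1, Dgat2, Apob, Mttp, Apoa1, Apoa4 and Apoc3. These 10 of the 34800 genes counted were chosen by name, for their roles in taking up dietary fat and packing it into lipoproteins. All 10 were among the 13706 genes that passed the filter on low counts.

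Fatty acids and monoglycerides set free in the gut lumen enter the absorptive cells of the intestine, the enterocytes, where small binding proteins of the FABP family hold them in the cytosol. At the endoplasmic reticulum they are rebuilt into triglycerides, which MTTP loads onto apolipoprotein B to form a chylomicron, and the apolipoproteins A1, A4 and C3 join its surface. These genes are known as features of maturing and mature enterocytes, whereas the crypt holds stem cells, dividing progenitors and secretory cells.

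The cells came from EF1a-OSCAR mice (strain given as C57BL6/J), in which the EF1a promoter at the Rosa26 locus drives OSCAR, a reporter of the activity of CDK9, a kinase of transcription elongation. OSCAR joins mCherry, through a P2A peptide, to VeN90, a Venus protein with a CDK9 substrate peptide that dims when phosphorylated, so a higher ratio of VeN90 to mCherry stands for lower kinase activity. A stop cassette between loxP sites had been deleted through the germline with Vasa-Cre, so every population carried the reporter in all its cells. Live EpCAM+ cells were sorted by the OSCAR ratio and by the level of expression from the EF1a promoter into 5 populations of 10000 cells, with 2 libraries each: P1 was OSCARlow EF1alow, P2 OSCARhigh EF1alow, P3 OSCARlow EF1ahigh, P4 OSCARmed EF1alow and P5 OSCARmed EF1ahigh. The age and sex of the mice are not given in the sources used here. The study calls its replicates biological, but neither it nor the labels say whether these libraries came from separate animals, so p-values measure the spread between these samples. The libraries held between 3800294 counts (P3 replicate 1) and 6482234 counts (P4 replicate 2) on the genes used.

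Markers of the cell types a crypt sort can hold were read first, as sums of CPM, the counts brought to a common library size with TMM scaling. Of the 10 enterocyte markers Sis was the most abundant over all libraries, but Krt20, Vil1 and Anpep lay above it in P1 and P2. The 10 summed to 18900 and 16700 CPM in the P1 libraries (replicate 1 first, here and throughout) and 9140 and 3710 in P4. Their sums were 2040 and 3610 in P2, 20000 and 5300 in P3 and 13200 and 6220 in P5. The 9 stem cell markers, led by Olfm4, summed to 752 and 1040 CPM in P1, 5100 and 7460 in P4, 2050 and 1460 in P2, 637 and 3210 in P3 and 4480 and 7300 in P5. P1 thus held high enterocyte and low stem cell marker levels, and P4 and P5 the highest stem cell marker levels. The 7 of 8 Paneth cell markers found, led by Lyz1, summed to 19800 and 64300 CPM in P1, 505 and 860 in P4, 569000 and 410000 in P2, 3440 and 1840 in P3 and 10800 and 2230 in P5. Paneth cell transcripts therefore made up a large part of the libraries labelled P2 and were also present in P1.

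The libraries labelled P2 also held the highest goblet, enteroendocrine and tuft cell marker levels. The 8 goblet cell markers, led by Fcgbp, summed to 51200 and 114000 CPM in P2 against 1860 to 9560 in the other 8 libraries. The 10 enteroendocrine markers, led by Gip, summed to 5520 and 13400 CPM in P2 against 22.4 to 677 elsewhere, and the 8 tuft cell markers, led by Trpm5, to 634 and 1140 against 21.8 to 233. The study's text places secretory markers in another population, so the names P2 and P3 are used here for the libraries labelled that way. The libraries labelled P2 held both the highest sums of these markers and the lowest Mki67, given below, while Plk1 was higher there than in P1. The study reports OSCARhigh cells, the gate of P2, as negative for Ki67, the protein of Mki67. It also counts differentiated cells as non-proliferating, and its secretory markers are those of fully differentiated cells. A low Mki67 therefore cannot tell the labels apart. Whether the labels P2 and P3 were exchanged was not tested, no library was renamed, and every comparison with P2 or P3 rests on those labels. For all 5 populations the deposited tables are named with other population numbers than the sample titles, and the groups here follow the titles and gate labels. The libraries labelled P3 stood apart in another way, with 58.57% and 35.5% of their counts on mitochondrial genes, against 1.02% to 4.99% in the others. P3 replicate 1 kept 1574312 counts on other genes and detected 12692 genes, the fewest of all libraries. The P3 replicates also correlated least (Pearson's r of log2 CPM 0.886). Low depth and a wide gap between replicates limit what a comparison with P3 can call. The 8 cycling cell markers, led by Mki67 over all libraries, summed to 303 and 312 CPM in P1, 632 and 639 in P4, 301 and 220 in P2, 787 and 1280 in P3 and 1240 and 1990 in P5. In P2 most of that sum was Plk1 (229 and 161 CPM, against 19.8 and 18.6 in P1), whereas Mki67 was lowest there, at 32.3 and 27.7 CPM against 89.3 and 118 in P1 and 285 and 554 in P3.

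Lymphocyte markers were not absent after the EpCAM sort. The 8 markers, led by Gzma, summed to 1120 and 321 CPM in P1, 2.7 and 4.76 in P4, 16.5 and 23 in P2, 169 and 3.77 in P3 and 6.42 and 2.12 in P5. Markers of other cells that express Cd36 or Dgat2 were low: the 7 macrophage markers (led by Cd14) summed to 2.37 to 11.4 CPM and the 6 endothelial markers (led by Vwf, with Cdh5 at 0) to 1.49 to 7.36. In the libraries labelled P2, however, these sums (4.57 and 10.9 CPM for macrophages, 3.35 and 7.36 for endothelial cells) were as high as Cd36 itself, at 2.13 and 5.13 CPM. The 5 adipocyte markers summed to 0.198 CPM in P4 replicate 2 and to 0 in the other 9 libraries, with Plin1, Lep and Retn at 0 throughout. The 6 fibroblast markers, led by Vim, summed to 1.95 to 50.6 CPM. In bulk libraries of sorted cells, fewer cells of a type and less RNA per cell cannot be told apart, and the part of any other cell type in the values of the 10 genes was not tested.

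**Figure D1:**
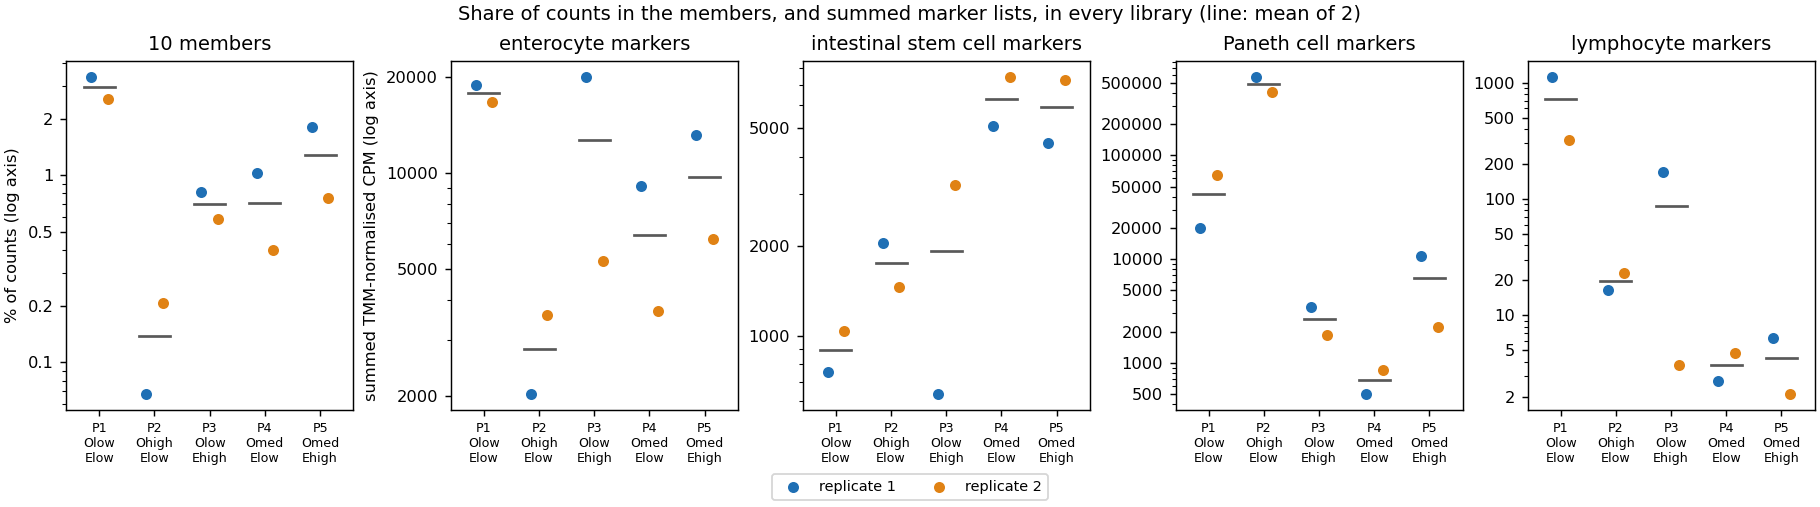
Share of all counts that fell on the 10 fat absorption genes (left panel, %) and summed CPM of 4 marker lists (other panels) in each population on the x axis, with dots for replicate 1 (blue) and replicate 2 (orange) and a line at their mean; each panel has its own log axis. The 10 genes hold 3.35% and 2.55% of counts in P1 and 0.0681% and 0.208% in P2, where Paneth cell markers sum to 569000 and 410000 CPM.

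The 10 genes together took 3.35% (95% Wilson interval 3.33 to 3.36) and 2.55% (2.54 to 2.57) of the counts in P1, the largest shares of any population. They took 0.0681% (0.0658 to 0.0704) and 0.208% (0.205 to 0.212) in P2, the smallest. The shares were 0.816% (0.807 to 0.825) and 0.585% (0.578 to 0.592) in P3, 1.03% (1.02 to 1.04) and 0.397% (0.393 to 0.402) in P4, and 1.8% (1.79 to 1.81) and 0.755% (0.748 to 0.761) in P5. Mitochondrial genes took a large part of the counts in P3 alone, and of the other counts the 10 genes took 1.97% (1.95 to 1.99) and 0.907% (0.896 to 0.918) in P3 and 1.89% (1.88 to 1.91) and 0.785% (0.778 to 0.792) in P5, so the order of P3 and P5 depended on them. P1 stayed largest and P2 smallest. These intervals cover counting error only, because reads amplified by PCR without molecular identifiers are not independent molecules, and the gap between replicates was far wider than any of them. No gene of the 10 was at the floor of 3 counts in any library; the lowest was Cd36 with 7 counts in P2 replicate 1.

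Against P4, which shares its low EF1a level, P1 addresses how fat absorption genes differ between OSCAR low and medium cells. Fabp2 and Apoc3 rose, so 2 of the 10 genes passed an adjusted p of 0.01 (edgeR quasi-likelihood test, Benjamini-Hochberg over 13706 genes), a share near the 23.4% of all genes tested that passed in either direction. Both P1 libraries lay above both P4 libraries for 6 of the 10 (Cd36, Fabp1, Fabp2, Apoa1, Apoa4 and Apoc3), against 37.7% of all genes, and the other 4 overlapped. The median log2 fold change of the 10 was 2.24, against -0.06 over all genes. DESeq2 called 5 of the 10 (beside 32% of all genes), adding Cd36, Fabp1 and Apoa4, and edgeR without the filter on low counts called 7 (beside 22.8%), adding Dgat2 and Apoa1 to those. Both calls were lost without P1 replicate 1, P1 replicate 2, P4 replicate 1 or P4 replicate 2. In each of these fits the number of all genes called fell as well. Fabp2 alone was lost without P5 replicate 1, where Apoa4 passed, or P5 replicate 2, and fewer of all genes were called there. Apoc3 alone was lost without P3 replicate 1, P3 replicate 2 or both, where more of all genes were called.

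By mean CPM the libraries labelled P2 were lowest for 8 of the 10 genes, and P4 for Fabp2 and Apoc3. Between P2 and P1, which differ in OSCAR ratio at low EF1a, 7 of the 10 genes fell (Cd36, Fabp1, Dgat1, Apob, Mttp, Apoa4 and Apoc3), beside 29.1% of all genes called in either direction. For all 10, both P2 libraries lay below both P1 libraries, which held for 38.6% of all genes, and the median log2 fold change was -4.05 against 0.01 over all genes. Fabp2, Apoa1 and Dgat2 did not pass, at adjusted p of 0.0107, 0.0104 and 0.0347. Every one of the 7 calls was lost without P1 replicate 1 or without P2 replicate 1. Most of them were lost without P1 replicate 2 or P2 replicate 2, and Fabp2 was gained without P2 replicate 2. In each of these fits the number of all genes called fell as well. Dgat1 was lost and Apoa1 gained without P4 replicate 1 or P4 replicate 2, and Apoc3 was lost and Apoa1 gained without both libraries labelled P3. With either library labelled P3 left out singly, Fabp2 and Apoa1 were gained, and the number of all genes called rose as well.

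Between P2 and P4, Dgat1 and Mttp fell (2 of 10, beside 14.3% of all genes), and the 10 had a median log2 fold change of -1.77 against 0.05 over all genes. Without the filter on low counts edgeR called 7 (beside 15.9%), adding Cd36, Dgat2, Apob, Apoa1 and Apoa4. DESeq2 called 3 (beside 22.5%), adding Apob. Cd36, Dgat1, Dgat2, Apob and Mttp had both P2 libraries below both P4 libraries, 5 of 10 against 33.5% of all genes, and the other 5 overlapped. The calls of Dgat1 and Mttp were both lost without P2 replicate 1, P2 replicate 2 or P4 replicate 1, where the number of all genes called fell as well. Dgat1 alone was lost without P1 replicate 2 or P4 replicate 2, where fewer of all genes were called. Apob was gained without P3 replicate 1, P3 replicate 2 or both, where more of all genes were called.

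In the comparisons of EF1a level, and in that within the EF1a high cells, edgeR with the filter on low counts called no gene of the 10. Between P5 and P4, edgeR called 0 of 10 and 0% of all genes, with 350 genes at an unadjusted p under 0.05 and 27 genes called by DESeq2, none of the 10. Without the filter edgeR called Cd36, Apoa4 and Apoc3 there, beside 0.882% of all genes. The libraries overlapped for all 10 genes, where both P5 libraries lay above both P4 libraries for 16% of all genes and below for 15.3%, and the median log2 fold change of the 10 was 1.03 against 0.01 over all genes. Between P3 and P5, edgeR called 0 of 10 and 0% of all genes, with 1587 at an unadjusted p under 0.05 and 39 called by DESeq2, none of the 10. The libraries overlapped for all 10 again, where 20.7% of all genes lay above and 19.9% below, with a median of 0.31. Between P3 and P1, edgeR called 0 of 10 beside 15.6% of all genes, with 6151 genes at an unadjusted p under 0.05, and DESeq2 called 3504 genes including Fabp2. Without the filter edgeR called Cd36, Fabp1, Fabp2, Mttp and Apoc3 there, 5 of 10 beside 18.2% of all genes. Both P3 libraries lay above both P1 libraries for Dgat1 and Mttp (28% of all genes) and below them for Fabp1, Fabp2 and Apoc3 (33.3% of all genes). The interaction, the difference of P3 against P5 from P1 against P4, called 0 of 10 beside 0.81% of all genes, with 4655 genes at an unadjusted p under 0.05 and 2001 called by DESeq2, none of the 10. Without the filter on low counts, 7 of the 10 were called in the interaction (Cd36, Fabp1, Fabp2, Dgat2, Apoa1, Apoa4 and Apoc3), beside 10.4% of all genes, so these calls depended on the filter. With the filter, Fabp2 had an interaction of -4.27 on the log2 scale (adjusted p = 0.062, edgeR) and Apoc3 of -3.63 (0.0853).

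Over all 5 populations, Fabp2, Dgat1 and Mttp differed (3 of 10, beside 36.3% of all genes; adjusted p = 0.00737, 0.00543 and 0.0032, edgeR). The count was 10 without the filter on low counts (beside 36.1% of all genes) and 8 with DESeq2 (beside 48.9%). Fabp2 and Dgat1 were lost without P1 replicate 1 or P1 replicate 2. Dgat1 and Mttp were lost without P2 replicate 1 or P2 replicate 2, and Apoc3 was gained without P2 replicate 2. Fabp2 was lost without P4 replicate 1, where Fabp1 was gained, P4 replicate 2 or P5 replicate 2. Cd36, Fabp1 and Apob were gained without P3 replicate 1 or P3 replicate 2. Cd36, Apoa4 and Apoc3 were gained without P5 replicate 1 or P5 replicate 2. The number of all genes called rose without either library labelled P3 and fell without each of the others. Apart from P3 against P5, these comparisons use the P1 or P4 libraries, and P3 against P5 shares its libraries with others, so they are not independent of each other. For a single gene, an exact two-sided permutation test of 2 against 2 libraries cannot go below 0.333.

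**Figure D2:**
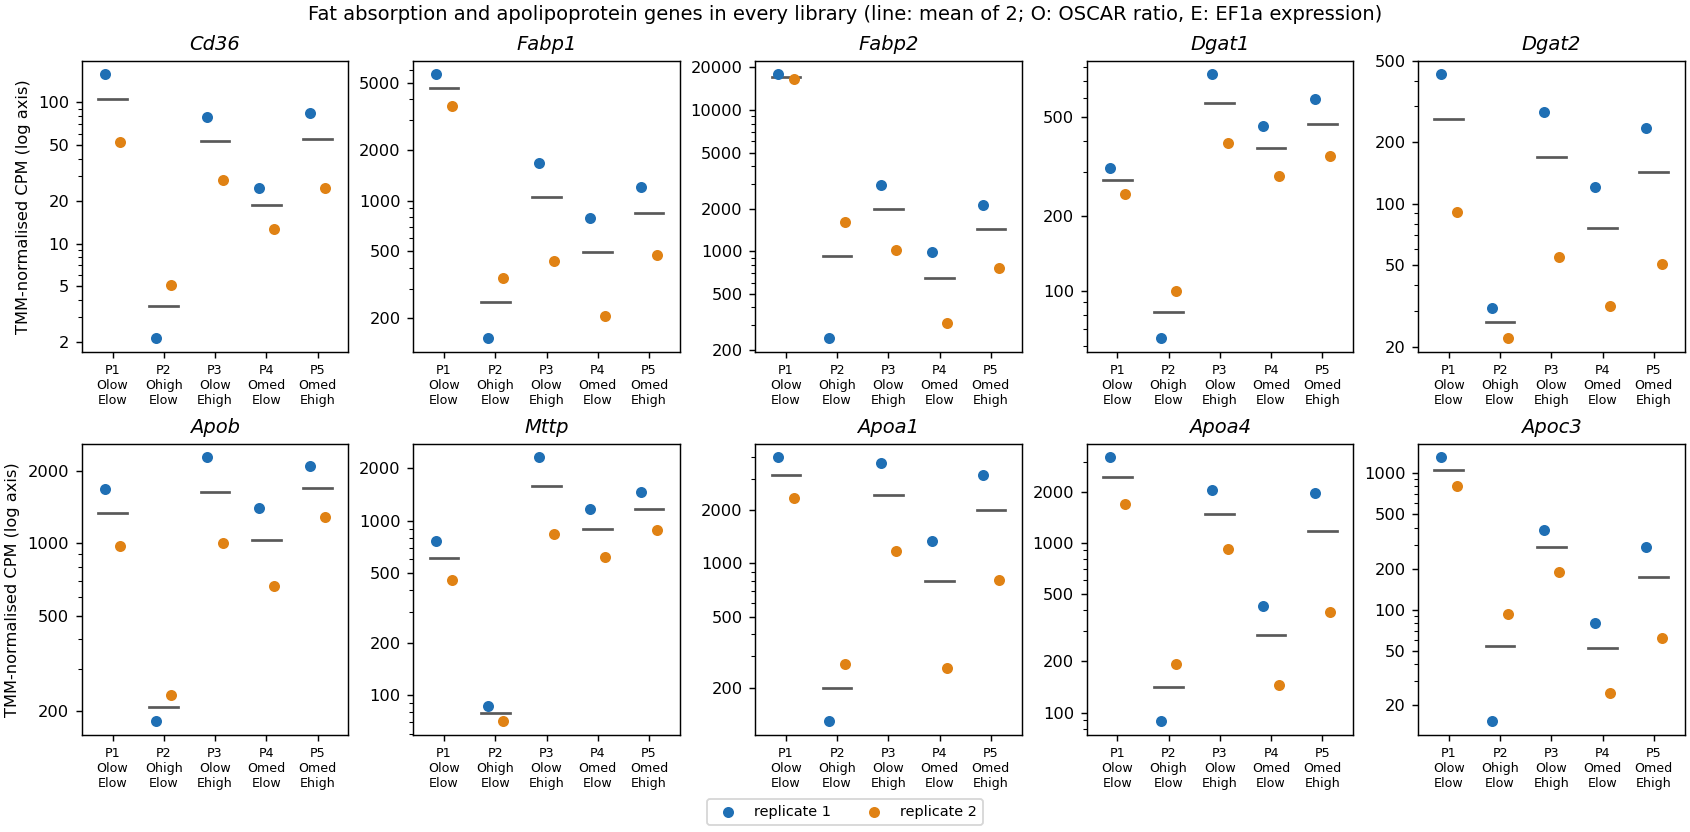
CPM of each of the 10 genes (y axis, log scale, each panel with its own axis) in the 5 populations on the x axis, with dots for replicate 1 (blue) and replicate 2 (orange) and a line at their mean. Fabp2 stands at 17900 and 16600 CPM in P1 and at or below 2960 in the other 8 libraries. The mean of Mttp is highest in P3 (libraries at 2310 and 840) and lowest in P2 (86.6 and 70.9).

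Cd36, on chromosome 5 (17287508 to 17394777, minus strand, NCBIM37), encodes a membrane protein that binds and takes up long-chain fatty acids. It was at 158 and 52 CPM in P1, 24.8 and 12.6 in P4, 2.13 and 5.13 in P2, 78.6 and 28.4 in P3 and 84.6 and 24.8 in P5. The means ± SD (n = 2) ran from 105 ± 74.7 in P1 through 54.7 ± 42.3 in P5, 53.5 ± 35.5 in P3 and 18.7 ± 8.64 in P4 to 3.63 ± 2.12 in P2, where it rested on 7 and 23 counts. The libraries of P1, P5 and P3 overlapped each other, P5 also overlapped P4, and the P2 libraries lay below all others. Cd36 fell by 4.79 on the log2 scale from P1 to P2 (SE 0.912, adjusted p = 0.0028, edgeR; lower in 2 of 2 libraries), with values between -5.59 and -3.80 when each library was left out and the call lost without P1 replicate 1, P2 replicate 1 or P2 replicate 2. The P1 to P4 difference of 2.49 (95% interval 0.79 to 4.19, adjusted p = 0.0262) did not pass.

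The intracellular carriers Fabp1, the liver-type fatty acid binding protein, and Fabp2, the intestinal type, were both highest in P1. Fabp1, on chromosome 6 (71149821 to 71155017, plus strand), was at 5630 and 3650 CPM in P1, 792 and 206 in P4, 152 and 349 in P2, 1680 and 437 in P3 and 1210 and 474 in P5. Fabp2, on chromosome 3 (122597990 to 122602424, plus strand), was at 17900 and 16600 CPM in P1, 994 and 308 in P4, 241 and 1610 in P2, 2960 and 1020 in P3 and 2140 and 755 in P5. For both genes the P1 libraries stood above the other 8, which overlapped their neighbours in the order P3, P5, then P4 and P2 for Fabp1 and P2 and P4 for Fabp2. The mean of Fabp2 was 17300 ± 938 CPM (SD, n = 2) in P1, where its replicates were closest, against 651 ± 485 in P4 and 927 ± 970 in P2. Its log2 fold change from P4 to P1 was 4.73 (SE 1.094, adjusted p = 0.00843, edgeR; higher in 2 of 2 libraries), and 4.12 to 5.80 when each library was left out; the call was lost without any 1 library of P1, P4 or P5. For Fabp1 that difference was 3.22 (adjusted p = 0.017), which did not pass.

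In the libraries labelled P2, both FABP genes were low, with a wide gap between replicates for Fabp2. Fabp1 fell by 4.21 on the log2 scale from P1 to P2 (SE 0.92, adjusted p = 0.00548, edgeR), with -4.92 to -3.72 when each library was left out and the call lost without any 1 library of P1 or P2. Fabp2 was at -4.22 (adjusted p = 0.0107), missing the threshold, and its P2 libraries differed between 241 and 1610 CPM. Against P4, P2 was at -0.99 for Fabp1 (adjusted p = 0.404) and 0.51 for Fabp2 (0.727). Fabp2 was the gene of the 10 nearest the threshold between P3 and P1, at -3.12 (adjusted p = 0.0414, edgeR).

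Promoter windows of 300 bases (250 before and 50 after the start of transcription) are shown because the 10 genes were low together in P2 and because several share short motifs. RefSeq (GRCm38.p6) held windows for 7 of the 10 genes, and for Apoc3, Dgat1 and Dgat2 none was used. Motifs were searched on both strands, none of the matches overlapped, and those found are in capitals. The TATA box, TATAAA, was in Fabp1 (30 bases before the start) and Apob (60 bases before), 2 of 7 windows against 13.6% of 32851 windows. CAAAGNNCA, a short form of the element bound by HNF4, was in Fabp2 (137 bases before the start, minus strand), Apob (103, minus strand) and Apoa4 (182, plus strand), 3 of 7 against 6.36%. TTTATGG, an element bound by CDX factors, was found only in Fabp1, at 227 and 89 bases before the start on the minus strand (1 of 7 against 2.75%). An HNF1 half-site, GTTAATNAT (0.801% of windows), and a GATA element, AGATAAG (3.04%), were in none of the 7. A match describes letters only; binding was not measured. The windows with a match were chr6:71199629-71199928 for Fabp1, chr3:122894822-122895121 for Fabp2, chr12:7977427-7977726 for Apob and chr9:46240594-46240893 for Apoa4, all on the plus strand.
Fabp1: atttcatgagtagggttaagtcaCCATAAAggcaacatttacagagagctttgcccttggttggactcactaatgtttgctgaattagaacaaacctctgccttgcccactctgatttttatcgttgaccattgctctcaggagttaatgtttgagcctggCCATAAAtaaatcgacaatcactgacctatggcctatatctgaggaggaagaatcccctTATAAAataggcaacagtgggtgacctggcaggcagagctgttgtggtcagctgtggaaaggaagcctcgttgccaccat
Fabp2: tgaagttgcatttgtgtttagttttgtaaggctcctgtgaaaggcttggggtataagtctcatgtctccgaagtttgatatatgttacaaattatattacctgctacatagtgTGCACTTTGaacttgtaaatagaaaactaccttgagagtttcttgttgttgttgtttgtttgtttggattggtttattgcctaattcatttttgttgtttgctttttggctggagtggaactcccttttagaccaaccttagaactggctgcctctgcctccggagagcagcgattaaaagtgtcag
Apob: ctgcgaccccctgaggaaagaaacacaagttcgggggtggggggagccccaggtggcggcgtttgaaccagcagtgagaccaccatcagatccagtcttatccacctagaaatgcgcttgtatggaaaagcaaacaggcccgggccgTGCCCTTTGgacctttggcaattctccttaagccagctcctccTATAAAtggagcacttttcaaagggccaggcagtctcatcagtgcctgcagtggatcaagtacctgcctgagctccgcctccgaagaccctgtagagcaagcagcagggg
Apoa4: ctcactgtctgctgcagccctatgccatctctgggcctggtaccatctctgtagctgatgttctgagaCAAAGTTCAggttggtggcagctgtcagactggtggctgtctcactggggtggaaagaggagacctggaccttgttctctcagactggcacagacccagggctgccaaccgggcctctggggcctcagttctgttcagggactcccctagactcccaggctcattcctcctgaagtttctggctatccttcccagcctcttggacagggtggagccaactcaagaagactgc

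Dgat1 and Dgat2 encode unrelated enzymes for the last step of triglyceride synthesis, and their profiles differed. Dgat1, on chromosome 15 (76332445 to 76342381, minus strand), was at 311 and 246 CPM in P1, 463 and 289 in P4, 64.3 and 99.7 in P2, 745 and 394 in P3 and 595 and 348 in P5. Its means spanned 6.95-fold, from 570 ± 248 CPM (SD, n = 2) in P3 to 82 ± 25 in P2, and P3, P5 and P4 overlapped, as did P4 and P1. Dgat1 fell by 1.76 on the log2 scale from P1 to P2 (SE 0.428, adjusted p = 0.0089, edgeR) and was at -2.19 in P2 against P4 (SE 0.434, adjusted p = 0.00583). With each library left out the first lay between -2.10 and -1.47 and was lost without any 1 library of P1, P2 or P4, or without the mitochondrial genes. The other lay between -2.57 and -1.84 and was lost without P1 replicate 2 or any 1 library of P2 or P4. Its P1 to P4 difference was -0.43 (95% interval -1.37 to 0.50, adjusted p = 0.419), opposite in sign to those of the FABP genes. Both P3 libraries lay above both P1 libraries for Dgat1, at 1.03 (adjusted p = 0.0853), which did not pass.

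Dgat2, on chromosome 7 (106302173 to 106331223, minus strand), was at 431 and 91.5 CPM in P1, 121 and 31.7 in P4, 30.8 and 21.9 in P2, 283 and 54.8 in P3 and 236 and 50.5 in P5. Its replicates differed 4.71-fold in P1, the widest gap of the 10 genes there, and P1, P3, P5 and P4 overlapped. It was not called by edgeR at 0.01 in the fit used throughout, but was in 5 comparisons without the filter on low counts. Under a replicate block, an alternative given below, it was called in P1 against P4, in P2 against P1 and over the 5 populations. The P1 to P4 value was 1.78 (adjusted p = 0.188) and that from P1 to P2 -3.32 (0.0347). Within a library, the ratio of Dgat2 to Dgat1 counts was 1.39 in P1 replicate 1 and between 0.109 and 0.479 in the other 9.

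Apob encodes the structural protein of the chylomicron and Mttp the transfer protein that lipidates it, and neither followed the FABP genes in P1. Apob, on chromosome 12 (7984454 to 8023641, plus strand), was at 1690 and 980 CPM in P1, 1400 and 664 in P4, 181 and 234 in P2, 2290 and 1000 in P3 and 2100 and 1290 in P5. Its means were 1690 ± 575 CPM (SD, n = 2) in P5, 1650 ± 907 in P3, 1330 ± 501 in P1 and 1030 ± 524 in P4, all overlapping, and 208 ± 37.7 in P2, below all of them. Mttp, on chromosome 3 (137752819 to 137806352, minus strand), was at 765 and 455 CPM in P1, 1170 and 617 in P4, 86.6 and 70.9 in P2, 2310 and 840 in P3 and 1460 and 881 in P5. For Mttp the mean was highest in P3 (1580 ± 1040 CPM), then P5 (1170 ± 412), P4 (894 ± 392) and P1 (610 ± 219), each overlapping the next, with P2 (78.7 ± 11.1) below.

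Of the 6 comparisons between populations, those with P2 gave the largest differences for both genes. Apob fell by 2.68 on the log2 scale from P1 to P2 (SE 0.558, adjusted p = 0.00433, edgeR; -3.02 to -2.26 when each library was left out), and its value against P4, -2.32 (0.0132), did not pass. Mttp fell by 2.95 from P1 to P2 (SE 0.574, adjusted p = 0.0031) and was at -3.51 in P2 against P4 (SE 0.588, adjusted p = 0.00293, edgeR), the lowest value of the 10 genes in that comparison. With each library left out these lay between -3.28 and -2.55 and between -3.91 and -2.99. The calls in P2 against P1 were lost for both genes without P1 replicate 1, P2 replicate 1 or P2 replicate 2, and that of Mttp in P2 against P4 without P2 replicate 1, P2 replicate 2 or P4 replicate 1. Between P1 and P4, Apob was at 0.37 (95% interval -0.81 to 1.55, adjusted p = 0.594) and Mttp at -0.55 (-1.75 to 0.65, 0.424). Mttp was higher in both P3 libraries than in both P1 libraries, at 1.37 (adjusted p = 0.0788), which did not pass.

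The genes of the chylomicron surface, Apoa1, Apoa4 and Apoc3, lie together on chromosome 9. Apoa1 (46036663 to 46038549, plus strand) encodes the main protein of high-density lipoprotein, Apoc3 (46041016 to 46043719, minus strand) an inhibitor of triglyceride clearance, and Apoa4 (46048779 to 46051542, plus strand) a protein made by enterocytes after fat intake. Apoa4 shares 632 exon bases with Gm10680 on the other strand, and the counting did not use strand, so its reads cannot be told apart from those of Gm10680 there and its values are uncertain to that extent. Apoa1 was at 3970 and 2350 CPM in P1, 1340 and 258 in P4, 129 and 270 in P2, 3680 and 1170 in P3 and 3170 and 810 in P5. Its means (SD, n = 2) of 3160 ± 1140 CPM in P1, 2420 ± 1780 in P3, 1990 ± 1670 in P5, 797 ± 762 in P4 and 200 ± 99.8 in P2 each overlapped the next in order. In the fit used throughout it was not called at 0.01 (1.99 in P1 against P4, adjusted p = 0.109, and -3.98 in P2 against P1, 0.0104, edgeR). Without the filter edgeR called it in 5 comparisons, and DESeq2 called it in P2 against P1.

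Apoa4 was at 3190 and 1690 CPM in P1, 426 and 145 in P4, 88.7 and 193 in P2, 2050 and 913 in P3 and 1970 and 390 in P5. P1, P3 and P5 overlapped, as did P4 with P5 and P2 with P4. Apoa4 fell by 4.11 on the log2 scale from P1 to P2 (SE 0.913, adjusted p = 0.00589, edgeR; -4.77 to -3.60 when each library was left out, the call lost without any 1 library of P1 or P2), and was at 3.10 in P1 against P4 (0.0192), short of the threshold. Between P5 and P4 it had the smallest p of the 10 genes, 0.036 before adjustment and 1 after it, at 2.05 on the log2 scale.

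Apoc3 stood with Fabp2 as a gene concentrated in P1. It was at 1310 and 805 CPM in P1, 79.7 and 24.5 in P4, 15.2 and 92.3 in P2, 383 and 189 in P3 and 286 and 62.2 in P5. P1, at 1060 ± 359 CPM (SD, n = 2), lay above the other 8 libraries, P3 (286 ± 137) overlapped P5 (174 ± 158), and P5, P2 (53.8 ± 54.5) and P4 (52.1 ± 39) overlapped. Apoc3 rose by 4.35 on the log2 scale from P4 to P1 (SE 1.031, adjusted p = 0.00933, edgeR; higher in 2 of 2 libraries; 3.73 to 5.42 when each library was left out). It fell by 4.29 from P1 to P2 (SE 1.031, adjusted p = 0.00843; -6.11 to -3.51 when each was left out). The first call was lost without either library of P1, P3 or P4 or without the mitochondrial genes, and the other without P1 replicate 1, P1 replicate 2 or P2 replicate 1. Between P2 and P4 the libraries overlapped, at 0.06 (adjusted p = 0.975), a value whose sign changed with the processing.

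**Figure D3:**
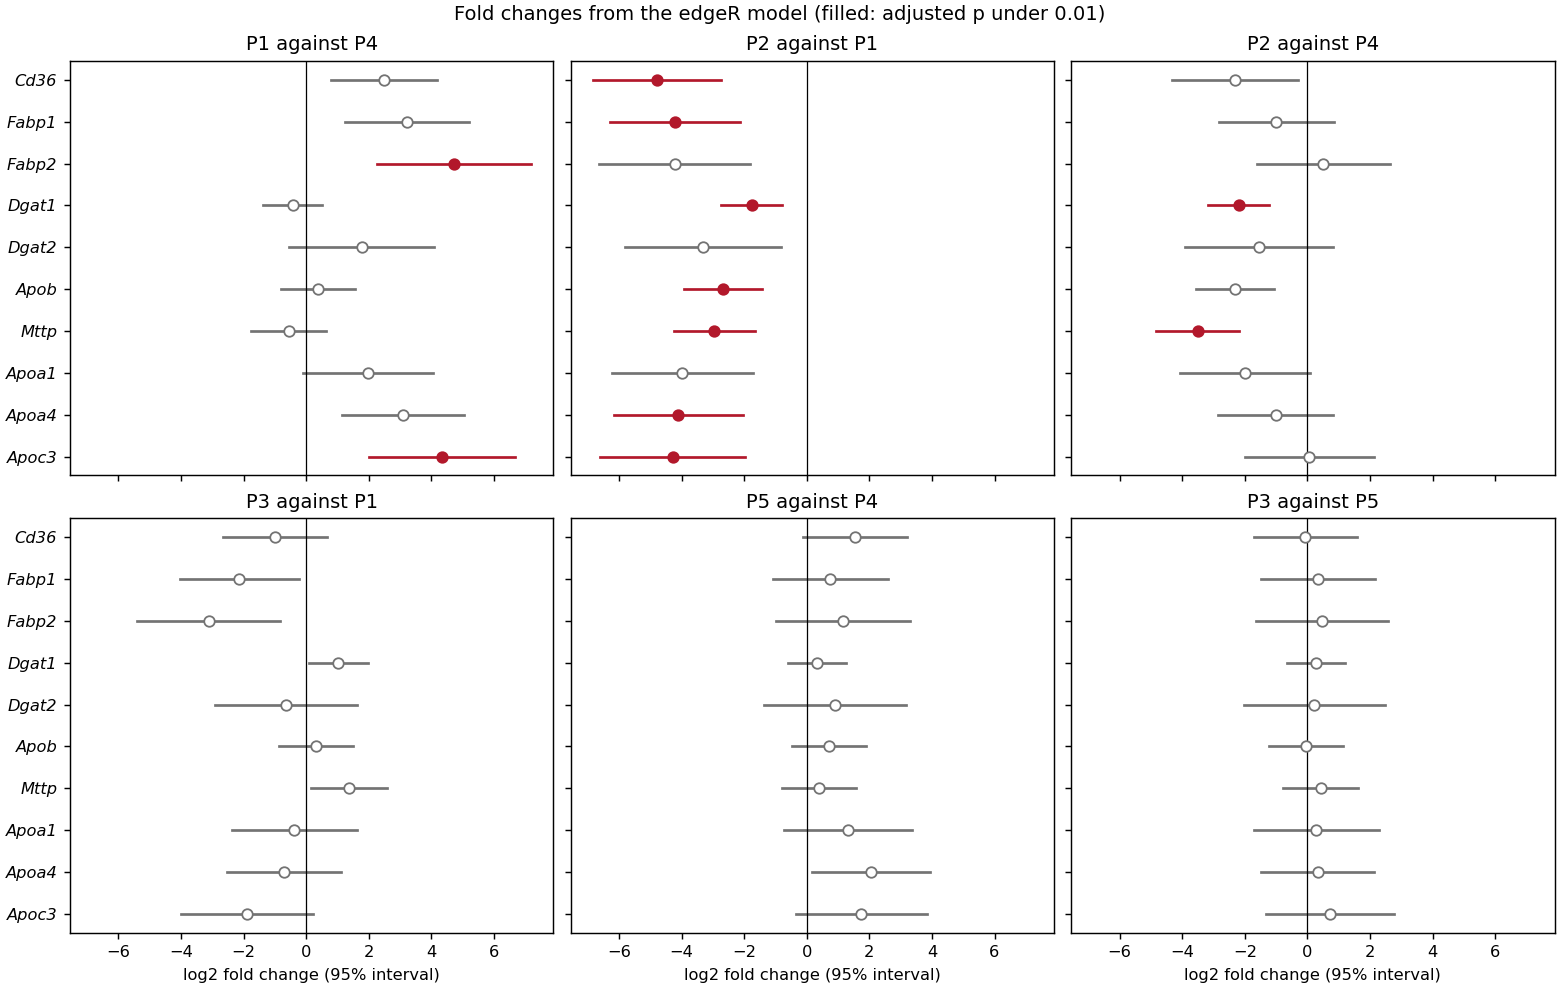
Log2 fold change (x axis, with 95% interval) of each of the 10 genes in 6 comparisons, 1 a panel, filled red where the adjusted p (edgeR) is under 0.01. All panels share the same axes. In P1 against P4, Fabp2 (4.73) and Apoc3 (4.35) pass while Dgat1 (-0.43) and Mttp (-0.55) lie below 0, and in P2 against P1 all 10 lie below 0 and 7 pass.

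Ratios of counts within a library, which no scaling between libraries can change, showed the divergence in P1 directly. The ratio of Fabp2 to Mttp was 23.4 and 36.5 in P1, 0.848 and 0.499 in P4, 2.79 and 22.7 in P2, 1.28 and 1.22 in P3 and 1.46 and 0.857 in P5. Both P1 libraries stood above all others in it. The ratio of Fabp1 to Mttp was 7.36 and 8.01 in P1, 1.76 and 4.92 in P2, and between 0.334 and 0.827 in the 6 libraries of P3, P4 and P5. The ratio of Apoc3 to Apob was 0.777 and 0.822 in P1, 0.0568 and 0.0369 in P4, 0.0842 and 0.394 in P2, 0.167 and 0.188 in P3 and 0.136 and 0.0483 in P5. In all 3 ratios both P1 libraries were highest, P2 replicate 2 came next and P4 replicate 2 was lowest, so the carrier and surface protein transcripts stood highest in P1 relative to the assembly transcripts of the same library. These ratios were compared as values, with no test.

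Apob with Mttp, Apoa4 with Apoa1 and Fabp2 with Fabp1 kept closer proportions. The ratio of Apob to Mttp was 2.21 and 2.15 in P1, 1.2 and 1.08 in P4, 2.09 and 3.31 in P2, 0.989 and 1.2 in P3 and 1.43 and 1.46 in P5. The ratio of Apoa4 to Apoa1 lay between 0.319 (P4 replicate 1) and 0.804 (P1 replicate 1) in all 10 libraries. The ratio of Fabp2 to Fabp1 lay between 1.25 (P4 replicate 1) and 4.63 (P2 replicate 2), with P1 at 3.18 and 4.56. These spans are narrow beside that of Fabp2 to Mttp.

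**Figure D4:**
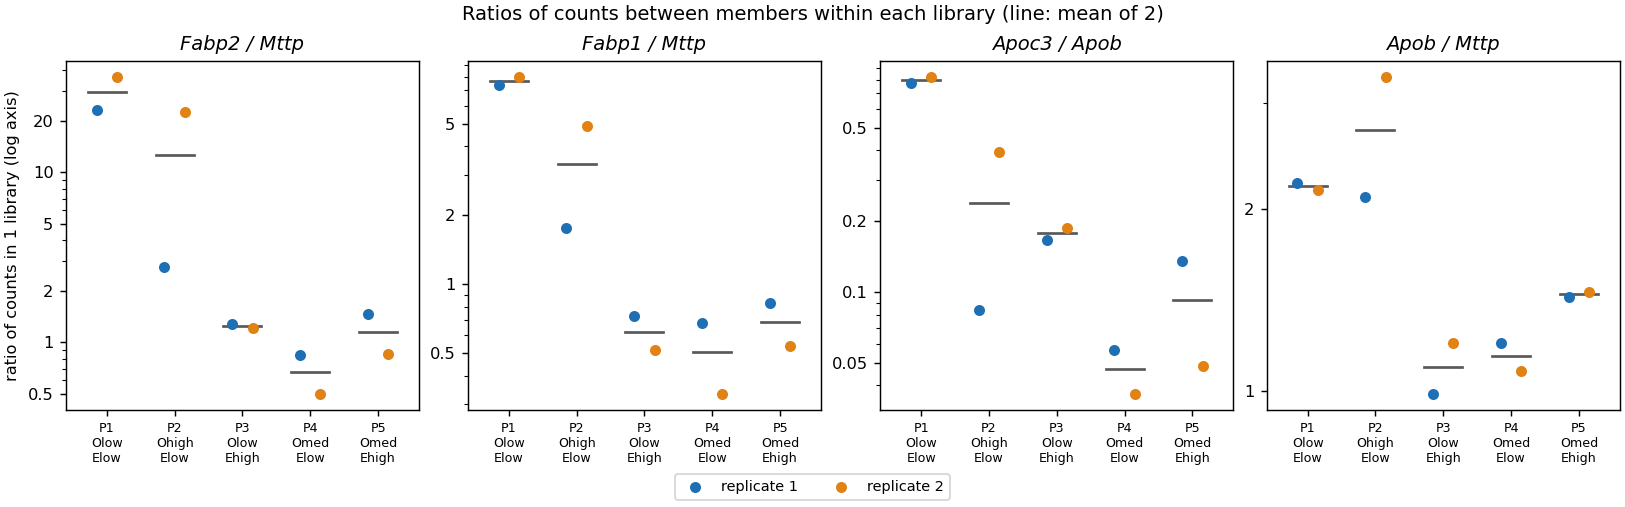
Ratios of counts between pairs of fat absorption genes within each library (y axes, log scale, each panel with its own axis) in the 5 populations, with dots for replicate 1 (blue) and replicate 2 (orange) and a line at their mean. Fabp2 to Mttp is 23.4 and 36.5 in P1 and 0.848 and 0.499 in P4, whereas Apob to Mttp stays between 0.989 and 3.31 in all 10 libraries.

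Per length of exon, which allows levels to be compared between genes, the small carriers and surface proteins led. In P1 the mean CPM per kb was 17900 for Fabp2, 8390 for Fabp1, 2550 for Apoa1, 1340 for Apoa4 and 1040 for Apoc3, followed by Mttp (138), Dgat2 (116), Apob (95.8), Dgat1 (91.1) and Cd36 (26.7). In P4, Fabp1 was first (903) with Fabp2 (674) and Apoa1 (645) next, Mttp ranked 4 (203), and Apoc3 ranked 8 (51.4). In P5, Apoa1 was first (1610), ahead of Fabp1 (1520) and Fabp2 (1500). In P2, Fabp2 (961), Fabp1 (453) and Apoa1 (162) led, and Dgat1 (26.9) ranked 6, above Mttp (17.9) and Apob (14.9). Cd36 was last in all 5 populations. The replicates were too far apart for the order of close neighbours to be read as a difference.

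The replicates of a population differed in a shared direction. In P1, P3, P4 and P5 the library numbered 1 held more of every one of the 10 genes than the library numbered 2, with median ratios of 1.69, 2.76, 3.08 and 3.12, against medians over all genes of 1, 1, 0.982 and 0.987. In P2 it held more of only 2 of the 10 (Dgat2 and Mttp), with a median ratio of 0.468 against 0.939 over all genes. Enterocyte marker sums moved the same way, higher in the library numbered 1 of P1, P3, P4 and P5 (20000 against 5300 CPM in P3), while stem cell marker sums were lower there (637 against 3210 in P3). The part of such differences in composition between replicates was not tested.

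The enterocyte markers themselves were not uniform. Krt20, a keratin of mature villus cells, was at 6430 and 5710 CPM in P1 and at 310 and 214 in P4, and rose by 4.53 on the log2 scale (adjusted p = 0.00197, edgeR). Vil1, a microvillus protein, was at 5310 and 6720 CPM in P1 and 1060 and 708 in P4, and rose by 2.76 (0.00423). These were 2 of the 10 enterocyte markers and the only ones called in P1 against P4, a share near the 23.4% of all genes. Without P4 replicate 1 or P4 replicate 2, edgeR called 0 of all genes in that comparison (5612 and 5301 at an unadjusted p under 0.05), so both calls were lost. Sis, the brush border sucrase-isomaltase, was at 1610 and 852 CPM in P1 against 3100 and 1210 in P4 (-0.81, adjusted p = 0.381). Among the other lists, 6 of 9 stem cell markers fell and 7 of 7 Paneth cell and 6 of 8 lymphocyte markers rose from P4 to P1. Between P1 and P2, where 29.1% of all genes were called, 6 of 10 enterocyte, 7 of 8 cycling cell and 6 of 8 lymphocyte markers fell with the 10 genes. In the same comparison 7 of 8 goblet cell, 7 of 10 enteroendocrine, 4 of 9 stem cell, 3 of 7 tuft cell, 2 of 7 Paneth cell and 1 of 8 cycling cell markers rose. The part of these cell types in the values of the 10 genes was not tested.

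Other genes of the pathway were read from a list of 45, of which 41 were tested. Between P4 and P1, 13 rose and 2 fell, with a median log2 fold change of 0.50 against -0.06 over all genes. These 15 calls of 41 compare with 23.4% of all genes called in either direction. Lipid droplet and lipolysis genes made up 7 of the 15, with 7 of 9 risen and a median of 2.1. Cidec, which enlarges lipid droplets, was at 271 and 201 CPM in P1, 10.8 and 4.46 in P4, 4.27 and 24.1 in P2, 32.4 and 12.9 in P3 and 25.6 and 5.19 in P5, and rose by 4.96 (adjusted p = 0.00355, edgeR). Lipe, the hormone-sensitive lipase, rose by 3.03 (0.00452) and Plin3, a droplet coat protein, by 2.74 (0.00147). All droplet calls were lost without P4 replicate 1 or P4 replicate 2, and fewer were left without P1 replicate 1 or P1 replicate 2. The same held for the 15 calls of the whole pathway list. In each of these fits the number of all genes called fell as well. Without either P4 library, every call over all genes was lost.

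The other 8 calls in P1 against P4 were spread over 4 steps. Of the 9 glycerolipid synthesis genes tested, Lpin2 (2.36, adjusted p = 0.00124, edgeR) and Lpin3 (1.81, 0.00304), phosphatidate phosphatases, rose. Of the 11 genes of assembly and export from the endoplasmic reticulum, 3 rose. These were Apobec1 (2.99, 0.000909), the enzyme that edits Apob mRNA, its cofactor A1cf (1.93, 0.00408) and the coat protein gene Sec24c (1.02, 0.00399). Apobec1 was at 122 and 93.5 CPM in P1 and 15.8 and 11.3 in P4, while Apob itself had a difference of 0.37 that did not pass. Of the 7 uptake and activation genes, the acyl-CoA binding protein gene Dbi rose (1.76, 0.00233) and the acyl-CoA synthetase gene Acsl3 fell (-1.57, 0.00182), and of 5 sterol genes Soat1, a cholesterol acyltransferase, fell (-2.35, 0.00217). These calls too were all lost without P4 replicate 1 or P4 replicate 2, where the loss covered all genes tested, not this list alone.

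In the libraries labelled P2, 18 of the 41 pathway genes fell and 5 rose against P1, beside 29.1% of all genes called in either direction, with a median log2 fold change of -1.32 against 0.01 over all genes. Mogat2, the monoacylglycerol acyltransferase of the intestine, was at 229 and 214 CPM in P1 and 10.4 and 24.8 in P2, and fell by 3.64 on the log2 scale (adjusted p = 0.00126, edgeR); without P2 replicate 1 its call was lost. Dbi fell by 3.07 (0.00027), Slc27a4, a fatty acid transport protein, by 2.21 (0.00451), and A1cf by 2.36 (0.00134). Tm6sf2 (-2.27, 0.00637) and Sar1b (-1.60, 0.00628), which act in lipoprotein lipidation and export, and the sterol exporters Abcg5 (-2.07, 0.00507) and Abcg8 (-2.03, 0.00647) were lower. Cidec (-4.02, 0.00625; -5.77 to -3.28 when each library was left out) and Lipe (-3.46, 0.00224) were among 7 droplet genes that fell, and the 8 droplet calls became 5 without P1 replicate 1, 3 without P1 replicate 2 and 2 without P2 replicate 1. The 23 calls became fewer without any 1 library of P1 or P2. In each of these fits the number of all genes called fell as well. Dbi and A1cf kept their calls in all 10 sets that leave out 1 library, and the other genes named in this paragraph in 6 to 9 of them.

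Some pathway genes were higher in P2. Mgll, monoglyceride lipase, was at 93 and 87.4 CPM in P2 against 6.78 and 4.35 in P1 and at most 9.95 in the other populations, and rose by 4.02 (adjusted p = 0.00249, edgeR). Soat1 was at 143 and 90.1 CPM in P2 against 7.79 and 16.2 in P1, and rose by 3.27 (0.000461), a call kept in all 10 sets. Scarb1, the high-density lipoprotein receptor, rose by 3.15 (0.00546), from 2.2 and 3.85 CPM to 17.1 and 36.6. The calls of Mgll and Scarb1 were lost without any 1 library of P1 or P2. The direction of the 10 genes in P2 was therefore not that of every lipid gene. Paneth, goblet and enteroendocrine markers were high in the same libraries, and their part in these levels was not tested.

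In the remaining comparisons of the pathway list, 4 genes rose and 2 fell in P2 against P4 (beside 14.3% of all genes called), 2 rose and 8 fell in P3 against P1 (beside 15.6%), and 20 of 41 differed over the 5 populations (beside 36.3%). The 6 calls in P2 against P4 became 18 (6 risen, 12 fallen) without the filter, beside 15.9% of all genes. They became 12 (6 and 6) with DESeq2, beside 22.5%, and 11 (5 and 6) with only those populations fitted, beside 20.9%. The balance of directions thus depended on the processing. Most or all of the 6 calls were lost without any 1 library of P2 or P4, where the number of all genes called fell as well. The 10 calls in P3 against P1 became 0 with only those populations fitted, where 0 of all genes were called. All were lost without P1 replicate 1, where every call over all genes was lost. Fewer were left without P1 replicate 2 or any 1 library of P3, P4 or P5. Fewer of all genes were called there too, though barely so without P3 replicate 1. The calls in P3 against P1 were 16 (3 risen, 13 fallen) without the filter, beside 18.2% of all genes, and 14 (2 and 12) with DESeq2, beside 26.9%. edgeR called 0 of the 41 in P3 against P5, in P5 against P4 and in the interaction, where 1587, 350 and 4655 of all genes had an unadjusted p under 0.05 and DESeq2 called 39, 27 and 2001 of all genes. The 20 calls over 5 populations became 32 without the filter, beside 36.1% of all genes, and 34 with DESeq2, beside 48.9%. Fewer were left without any 1 library of P1 or P2, where the number of all genes called fell as well.

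**Figure D5:**
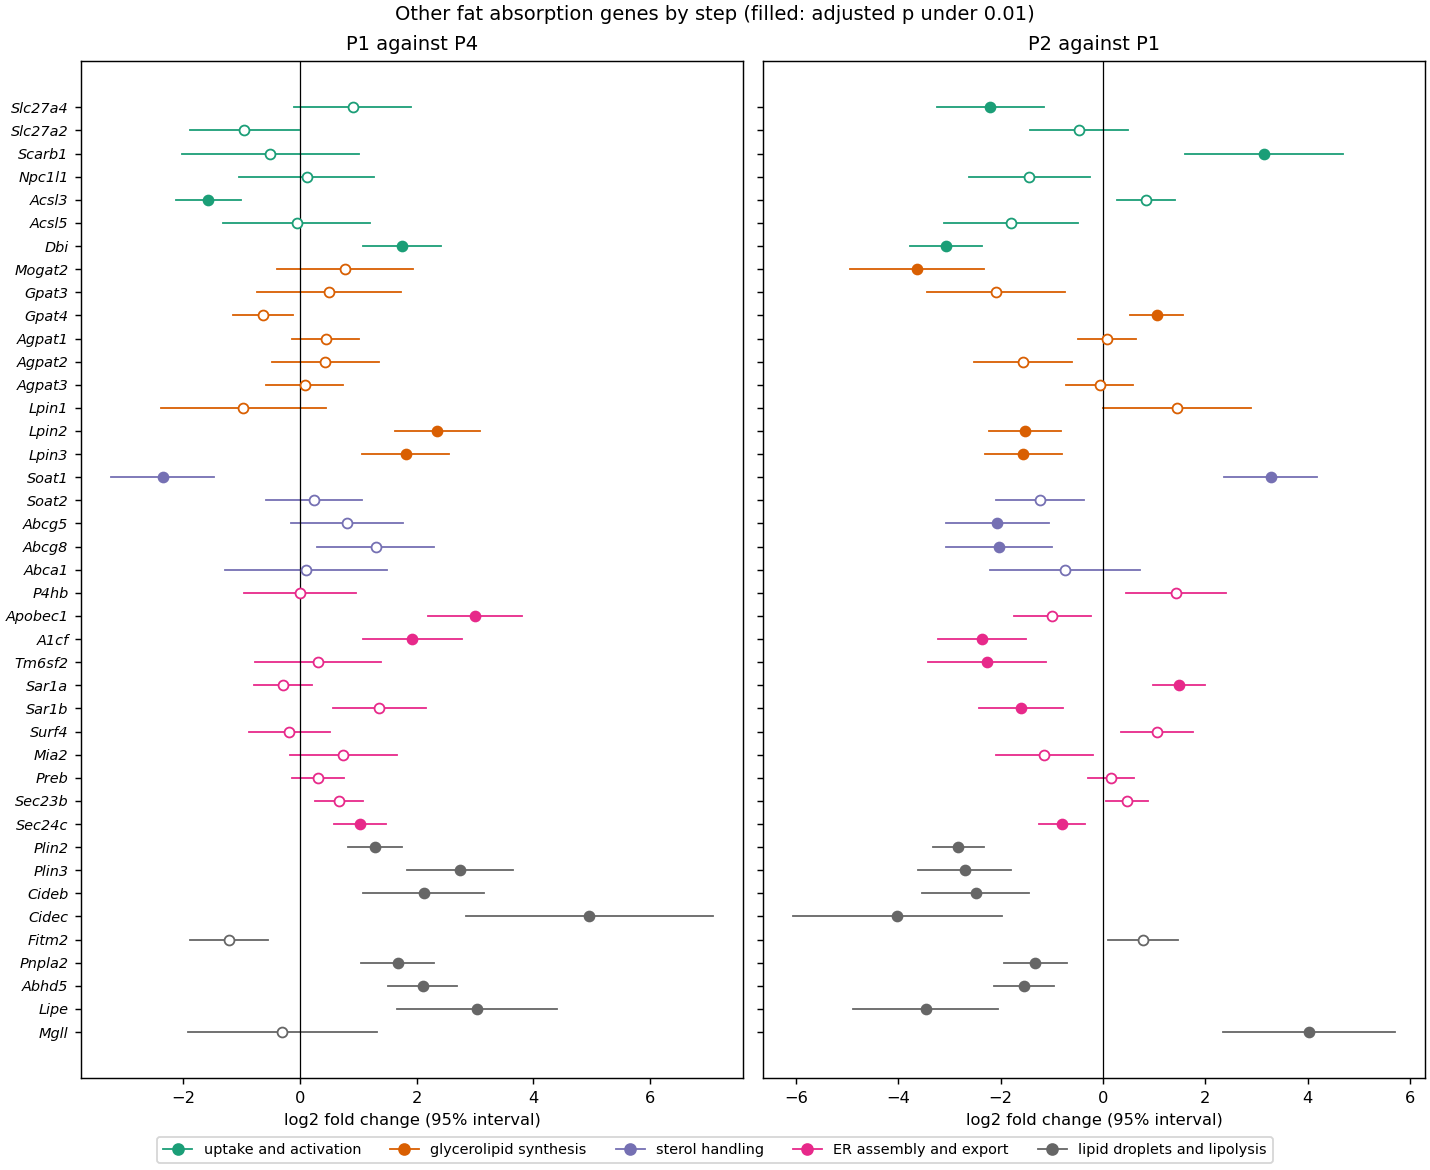
Log2 fold change (x axis, with 95% interval) of 41 other fat absorption genes, coloured by step, in P1 against P4 (left) and P2 against P1 (right), filled where the adjusted p (edgeR) is under 0.01; each panel has its own axis. Of the 9 droplet and lipolysis genes, 7 are filled above 0 in P1 against P4, with Cidec at 4.96, while in P2 against P1 Mgll (4.02) and Soat1 (3.27) lie above 0 and Mogat2 (-3.64) below.

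Relatives of the FABP and apolipoprotein genes behaved unevenly. Of 24 listed, 12 were tested, and edgeR made 1 call in P1 against P4, beside 23.4% of all genes. DESeq2 made 3 calls, beside 32%, and edgeR without the filter made 6 (4 risen, 2 fallen), beside 22.8%. The call with the filter was Apoc2, the activator of lipoprotein lipase. Apoc2 was at 1130 and 541 CPM in P1, 34.3 and 11.6 in P4, 110 and 229 in P2, 242 and 82.4 in P3 and 250 and 44.8 in P5. It rose by 5.19 on the log2 scale (adjusted p = 0.00388, edgeR), in the same direction as Apoc3, and lay between 4.57 and 6.16 when each library was left out, with the call lost without any 1 library of P1 or P4. Rbp2, the retinol binding protein of enterocytes, was at 6920 and 3780 CPM in P1 and 106 and 387 in P2, and fell by 4.44 (0.00842; -5.65 to -3.78 when each library was left out, the call lost without any 1 library of P1 or P2). Rbp7, a related retinoid binding protein, was highest in P3 at 55.2 and 58.2 CPM, at 6.78 and 7.86 in P1 and 0.305 and 0.892 in P2 (-3.48, 0.00201; -4.49 to -3.00 when each library was left out, the call lost without P1 replicate 2 or P2 replicate 1). Fabp5, the epidermal FABP, moved opposite to Fabp1, at 22.9 and 43.9 CPM in P2 against 0.339 and 2.01 in P1 (4.81, 0.00116; 4.03 to 6.55 when each library was left out, the call kept in all 10 sets). Its P1 values rest on 2 and 12 counts, and the P2 values of Rbp7 on 1 and 4. The first of each pair is below the floor of 3, so the sizes of both differences are uncertain.

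Apoe rose from 1.86 and 4.52 CPM in P1 to 21.9 and 11.8 in P2 (2.39, adjusted p = 0.00733, edgeR) and Apoh from 0.847 and 0.669 to 15.2 and 7.58 (3.87, 0.00565); these calls were kept in 4 and 2 of the 10 sets that leave out 1 library, with values of 1.87 to 3.16 and 3.30 to 4.31. Both were lost without any 1 library of P1, P2 or P4, and that of Apoh also without either P5 library. Apoa5, next to Apoa4 in the same cluster of the genome, was at 3.05 and 4.01 CPM in P2 and at most 0.167 elsewhere, and differed over the 5 populations (adjusted p = 0.00823, edgeR), a call kept only without P3 replicate 1 or P3 replicate 2 among the sets that leave out 1 library. Fabp6, the ileal bile acid binding protein, differed between the library numbered 1 and that numbered 2 in every population, at 8.64 and 99.5 CPM in P1, 1.11 and 5.85 in P4, 0 and 4.68 in P2, 1.59 and 40.4 in P3 and 1.6 and 26.7 in P5; it was named after its values were seen. It was thus lower in every library numbered 1, the reverse of the 10 genes in P1, P3, P4 and P5. Fabp7, Pmp2, Apod and Apon, from the same list, had 0 counts in all 10 libraries, which allows a share of up to 4.63e-05% to 7.89e-05% of counts. Vamp7, from the pathway list, also had 0 counts but matched no gene model used here, so no limit is given for it.

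Transcription factors of enterocytes and lipid metabolism were read from a list of 17. Between P4 and P1, 4 rose and 2 fell, beside 23.4% of all genes called; Pparg (2.24, adjusted p = 0.00258, edgeR), Hnf4g (2.05, 0.00448) and Nr1h3 (1.71, 0.0057), nuclear receptors, were the 3 largest. All 6 calls were lost without P1 replicate 1, P4 replicate 1 or P4 replicate 2, and most of them without P1 replicate 2. In each of these fits the number of all genes called fell as well, and without either P4 library every call over all genes was lost. Between P1 and P2, 12 fell and 2 rose without the filter on low counts, beside 25% of all genes called. With the filter 8 fell and 1 rose, beside 29.1% of all genes called. These 9 calls became fewer without P1 replicate 1 or P2 replicate 1, where the number of all genes called fell as well. Hnf4g was at 1430 and 1110 CPM in P1, 347 and 266 in P4, 57.9 and 131 in P2, 539 and 374 in P3 and 376 and 298 in P5, and fell by 3.75 (0.000387) from P1 to P2, a call kept without any 1 of the 10 libraries. Nr1h3, which encodes LXR alpha, fell by 3.16 (0.000489), also kept in all 10, and Creb3l3, at 609 and 320 CPM in P1 and 19.2 and 41 in P2, by 3.94 (0.00837), lost without any 1 library of P1 or P2. Hnf4a, named after its values were seen, was more even, at 1160 and 1410 CPM in P1, 420 and 667 in P2, and 720 and 875 in P4. Nr5a2 differed over the 5 populations (adjusted p = 0.000252, edgeR), at 55.7 and 52.2 CPM in P3, 18 and 21.4 in P1 and 7.32 and 5.13 in P2.

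Outside the lists, the 10 genes whose log2 CPM over the 10 libraries was most like the mean of the members (each scaled) were 2010106E10Rik, Agmo, Abhd6, Nat8, Ms4a10, Cyp4v3, Emp1, Ggt1, Lpgat1 and Sema6a. Pearson's r lay between 0.972 and 0.996 over 10 libraries, a description only, since the libraries form 5 populations. 2010106E10Rik, the most alike, was at 361 and 145 CPM in P1, 94.1 and 27.1 in P4, 7.62 and 13.6 in P2, 276 and 63.1 in P3 and 216 and 62.2 in P5. It was higher in replicate 1 of P1, P3, P4 and P5 and lowest in P2, as the mean of the 10 members was. That mean, in SD units, was 1.127 and 0.582 in P1, 0.122 and -0.759 in P4, -1.58 and -1.035 in P2, 0.927 and 0.028 in P3 and 0.75 and -0.163 in P5.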

How the data were processed

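Per the sources used here, the authors made whole-number counts of reads per gene (unstranded, over exons) from poly-A libraries (TruSeq, NextSeq 500, 75 cycles) of 5 populations with 2 libraries each. The submitters' processing notes name FastQC 0.11.5, TopHat2 2.1.0, Bowtie, HTSeq 0.11.2 and mm9; the annotation is not given in the sources used here. The deposited counts were used as they stood after removal of 206 rRNA genes from 35006, leaving 34800 genes and 3800294 to 6482234 counts per library, where the floor of 3 counts is 4.63e-05% to 7.89e-05%. Counts outside genes stayed out (no feature: 3.76% to 14.76% of unique alignments), as did a row without a gene name (at most 0.00039%).

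All 10 libraries were fitted in 1 model of 5 population means, without a block, with edgeR 4.0.16 (TMM, filterByExpr, quasi-likelihood test) in R 4.3.3, with 5 residual degrees of freedom. Benjamini-Hochberg adjustment ran over 13706 genes, and genes were called at an adjusted p under 0.01. The fit was tested on simulated data. Alternatives were DESeq2 size factors, the DESeq2 1.42.0 test, no filter on low counts, a threshold of 0.05, only the populations compared, no mitochondrial genes, a replicate block, and each library left out in turn. Leaving out both P2-labelled or both P3-labelled libraries was chosen after seeing the data. Positions and exon lengths came from GENCODE vM1 (NCBIM37; 33643 of 35006 names matched), and promoters from RefSeq. Python 3.11.15 with pandas 2.3.3 and matplotlib 3.10.9 made tables and figures.

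The 10 genes and all lists were chosen with earlier results of these data known. All 10 are named in each comparison. From the lists of other pathway genes, relatives and transcription factors, at most the 3 called genes with the largest log2 fold change per role are named for P1 against P4, P2 against P1 and the test over 5 populations, and genes without counts; outside the lists, the 10 most correlated with the mean of the 10 genes. Marker lists covered enterocytes, stem, cycling, Paneth, goblet, tuft and enteroendocrine cells, lymphocytes, macrophages, endothelial cells, fibroblasts and adipocytes. No replicate pair agreed within sampling noise (chi-square per degree of freedom 19.1 to 57.6), so none was counted as 1 library deposited more than once.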

Additional observations from a re-analysis of the deposited data

How the results depend on the processing

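With 2 libraries a population and replicates that lay far apart, every call among the 10 genes depended on single libraries; a library left alone in its population is assumed to vary like the other groups. When each library was left out in turn, of 700 values of 70 fold changes 604 kept sign and side of the threshold, 46 lost a call, 12 gained one and 38 changed sign; of 580 values under the other alternatives 516 kept both, 56 gained a call, 4 lost one and 4 changed sign. With each library left out in turn, the number of the 10 genes called ran from 0 to 2 in P1 against P4 (2 with all libraries), 0 to 3 in P2 against P4 (2), 0 to 9 in P2 against P1 (7) and 1 to 6 over the 5 populations (3), and was 0 in each of those fits in P3 against P5, P5 against P4, P3 against P1 and the interaction. The log2 fold changes that changed sign ran as follows. P1 against P4: Apob -0.077 to 0.996. P3 against P5: Cd36 -0.965 to 1.057, Fabp1 -0.969 to 1.137, Fabp2 -0.525 to 1.376, Dgat1 -0.28 to 0.69, Dgat2 -1.408 to 1.705, Apob -0.774 to 0.426, Mttp -0.503 to 0.972, Apoa1 -0.793 to 1.559, Apoa4 -0.425 to 1.906 and Apoc3 -0.018 to 2.177. P2 against P4: Fabp1 -1.74 to 0.26, Fabp2 -1.459 to 1.568 and Apoc3 -1.799 to 1.118. P5 against P4: Fabp1 -0.064 to 2.034, Dgat1 -0.103 to 0.708, Dgat2 -0.583 to 2.18 and Mttp -0.011 to 0.93. P3 against P1: Dgat2 -2.236 to 0.858, Apob -0.395 to 0.806 and Apoa1 -1.423 to 0.249. Interaction: Apob -1.102 to 0.098.

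Without the filter on low counts, 7 of the 10 were called in P1 against P4 (beside 22.8% of 21996 genes), 7 in P2 against P4 (15.9%), 3 in P5 against P4 (0.882%), 5 in P3 against P1 (18.2%), 7 in the interaction (10.4%) and 10 over the 5 populations (36.1%). DESeq2 called 5 in P1 against P4 (32% of all genes), 1 in P3 against P1 (26.9%) and 8 over the 5 populations (48.9%), and a threshold of 0.05 called 5 (42.1%), 1 (33.9%) and 9 (57.9%). In P1 against P4, 1 was called without mitochondrial genes and 1 without both libraries labelled P3 (an alternative chosen after seeing the data). Apoc3 in P2 against P4 (0.057) became -0.073 without the filter, -0.044 without mitochondrial genes and -0.049 with only the populations compared. The cause of these changes was not tested.

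Under a replicate block, 6 of the 10 were called in P1 against P4 (28.3% of all genes), 3 in P2 against P4 (17.4%), 9 in P2 against P1 (33%) and 9 over the 5 populations (41.7%), Dgat2 among them except in P2 against P4, and Cd36 in P3 against P5 became 0.019. The correlation of deviations of same-numbered libraries was above 0.1 in 9 of 10 pairs of populations (highest 0.554, P4 with P5; median 0.255) and -0.06 in P2 with P3. No label ties the numbers to an animal, batch or day and 1 pair fell short, so the samples were taken to share only a number, and the correlations are a hint from the data, not the design.

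Counts over all genes moved as well. In P1 against P4 (3214) they were 5026 without the filter, 5777 at 0.05, 833 and 1172 without P1 replicate 1 or 2 and 0 without either P4 library. In P2 against P1 (3989) they were 6462 at 0.05, and 1951, 2146, 1576 and 2465 without the P1 and P2 libraries in turn. In P2 against P4 (1962) they were 3500 without the filter, 3132 with DESeq2 and 3987 at 0.05, and 622, 588, 393 and 320 without the P2 and P4 libraries in turn. In P3 against P1 (2132) they were 4005 without the filter, 3504 with DESeq2, 4652 at 0.05 and 0 with only those populations, and 0, 312, 1259, 1215 and 1220 without P1 replicate 1, P1 replicate 2, P3 replicate 2 and the P4 libraries. In the interaction (111) they were 362 with DESeq2 size factors, 2298 without the filter, 2001 with DESeq2, 2370 at 0.05, 375 without mitochondrial genes, 593 with the block, and 0 without P2, with only its populations or with any library left out. Over the 5 populations (4971) they were 7931 without the filter and 7929 at 0.05, and 2657, 2870, 3053 and 3231 without the P1 and P2 libraries in turn. In P3 against P5 (0) they were 302 without the filter, 39 with DESeq2, 4 with the block and 1 at 0.05, and in P5 against P4 (0) 194, 27 and 1 under the first 3. Without mitochondrial genes the median of all genes moved by -0.20 in P1 against P4 (59.7% of calls higher became 46.9%), 0.14 in P2 against P1 (47.8% became 54.3%) and 0.11 in the interaction (40.5% became 55.5%); with DESeq2 size factors 51.5% became 43.7% in P3 against P1.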
